A study of Saccharomyces cerevisiae with 18 samples.

Results

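The 32 genes described here encode the cytosolic translation factors of budding yeast. They were taken by a fixed list of gene identifiers: the initiation (eIF), elongation (eEF) and termination (eRF) factors, with the poly(A)-binding protein PAB1 and the helicase DED1. They make up 32 of the 7126 identifiers in each of the 2 count tables, and all 32 passed the filter on low counts in every comparison. By role, 8 belong to the cap complex, 7 to start selection and subunit joining, 6 to eIF3, 9 to elongation and 2 to termination.

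Polyadenylated RNA was counted in 18 libraries, 6 groups of 3 biological replicates each. In experiment 1, wild-type (WT) cells exposed to salt were set against WT cells without it (basal), with TruSeq stranded libraries. In experiment 2, salt and basal cells of a hog1::KAN deletion strain (HOG1-KO) were set against salt and basal WT cells, with CORALL libraries. All cells were labelled BY4741, grew exponentially in YPD, and salt meant 0.4 M NaCl for 15 min. HOG1 encodes the stress-activated protein kinase of the high osmolarity glycerol pathway. Nothing in the labels says how many independent deletion clones were used.

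The HOG1 genotype labels held. The HOG1-KO libraries contained 0 counts of HOG1 in salt and 1 count in basal medium over 3 libraries each, against 12353 and 8751 counts in WT salt and WT basal libraries of experiment 2. BY4741 lacks LEU2, URA3 and MET17, and in experiment 2 these genes had at most 1, 0 and 2 counts per library. In experiment 1 they stood at 168 to 191, 14.1 to 36.3 and 191 to 498 CPM of total counts, which goes against the label BY4741. In experiment 2, the libraries WT basal 1 and WT salt 2 differed most from the rest of their groups, and their deviations ran together (r = 0.82 over 5804 genes). They were picked from these same counts. Leaving them out lowers the spread within the WT groups by that choice and leaves fewer libraries there. For the 32 genes these libraries differed from the other libraries of their group by a median log2 of -0.04 (WT basal 1) and 0.05 (WT salt 2), with single genes between -0.83 for HYP2 and 0.53 for TIF11 in WT basal 1 and between -1.13 for DED1 and 0.87 for TIF11 in WT salt 2. Total counts ranged from 11135883 to 16527859 per library.

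Translation starts when eIF4E binds the cap of an mRNA and eIF4G bridges it to the helicase eIF4A, to poly(A)-binding protein and to the small ribosomal subunit. eIF1, eIF1A, eIF2 with the initiator tRNA, eIF3 and eIF5 let the subunit scan for a start codon, and eIF5B joins the large subunit. In elongation, eEF1A delivers aminoacyl-tRNA, eEF1B recharges eEF1A with GTP, eEF2 moves the ribosome on, and fungi need in addition the ATPase eEF3. eIF5A helps at stalled peptide bonds, and eRF1 with eRF3 releases the finished protein. In yeast, many of these genes belong to the growth-related genes whose RNA falls after many kinds of stress.

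Several factors are encoded by pairs of paralogs, and sequence decides how far the counts of a pair can be told apart. TIF1 and TIF2, both encoding eIF4A, are shown because they share 99.5% of their coding bases, with 6 differences. HYP2 and ANB1, both encoding eIF5A, are shown because they share 90.9%, with 43 differences. The stretches run over coding positions 169 to 228 of TIF1 (chrXI:555155-555214, plus strand) and TIF2 (chrX:154464-154523, minus strand), and over positions 274 to 333 of HYP2 (chrV:85949-86008, plus strand) and ANB1 (chrX:525049-525108, minus strand), from RefSeq R64. Capitals mark bases that differ within the pair, 2 for the first pair and 10 for the other.
TIF1: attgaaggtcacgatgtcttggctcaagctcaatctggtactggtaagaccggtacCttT
TIF2: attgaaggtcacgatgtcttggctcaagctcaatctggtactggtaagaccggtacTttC
HYP2: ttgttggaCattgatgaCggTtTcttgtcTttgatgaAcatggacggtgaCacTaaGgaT
ANB1: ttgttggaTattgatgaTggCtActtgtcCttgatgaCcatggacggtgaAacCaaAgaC
Reads were 50 bases long. Of all 50-base words in the coding sequence, 84.9% of TIF1 and TIF2, 92.5% of TEF1 and TEF2 and 91.9% of EFT1 and EFT2 occur elsewhere in the genome, so the split of counts within these 3 pairs is uncertain. The other 26 genes, HYP2 among them, hold no such word. The small nucleolar RNA genes SNR38 and SNR18 lie within TEF4 and EFB1 on the same strand, and whether their reads entered those counts is not given in the sources used here.

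The bases upstream of the start codon were searched on both strands, 500 for each gene, for 4 motifs: AAAATTT (the core of the ribosomal RNA processing element, RRPE), GATGAG (PAC), AGGGG (the stress response element, STRE), together with the Rap1 motif, which is longer and was searched with free bases inside it. The RRPE core was present in 27 of 32 translation factor windows, 84.4%, against 47.4% of 137 ribosomal protein windows and 34.1% of all 5992 windows. PAC was present in 37.5% of the translation factor windows against 28.3% of all windows, STRE in 28.1% against 34.1%, and the Rap1 motif in 6.25% against 2.22%, where the ribosomal proteins had 21.2%. These shares are a description of letters, with no test. Examples are shown as 30-base stretches on the strand of the gene, with the RRPE core or its reverse complement in capitals: YEF3 (chrXII:636664-636693, plus strand), TIF4631 (chrVII:823904-823933, plus strand), NIP1 (chrXIII:895568-895597, minus strand), and TIF35 (chrIV:1325406-1325435, minus strand), chosen for their large falls in salt. TEF2 (chrII:477225-477254, plus strand) has no RRPE core and is shown with its Rap1 motif in capitals.
YEF3: cttttgcatcaAAATTTTgtagaatatctc
TIF4631: tatgttgcttgAAATTTTaccaatcttgat
NIP1: tcgccgttgaaAAATTTTtcaatgagaaaa
TIF35: taacgaagttaAAATTTTtttctttcactg
TEF2: attcatgttgCACCCACACAtttatacacc
An AAAATTTT run holds the core on both strands, and such a window was counted once.

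Levels are given as CPM, the share of a library's counts scaled by TMM factors within each experiment, and per kilobase of coding length where genes are compared. Per kilobase, HYP2 had the highest mean of the 32 genes in 5 groups, between 4452 CPM per kb in WT salt and 6654 in WT basal cells of experiment 2, and EFB1 led in HOG1-KO salt with 3643. TIF4632, encoding the minor eIF4G, was lowest in all 6 groups, at 15.1 to 21.4 CPM per kb. The median coefficient of variation over the 32 genes was lowest in HOG1-KO salt, 4.75%, and highest in WT salt of experiment 2, 19.4%. Together the 32 genes took 1.44 ± 0.0343% of all counts in salt against 3.20 ± 0.0487% in basal WT cells of experiment 1 (SD, n = 3 each, as below). In HOG1-KO they took 2.73 ± 0.0445% in salt against 3.41 ± 0.0901% in basal cells, and in WT of experiment 2 they took 2.04 ± 0.00931% in salt against 3.32 ± 0.136% in basal cells. Salt libraries were below basal libraries without overlap in all 3 comparisons. Counts are relative to the RNA in each library, so fewer transcripts of these genes per cell and a change in other RNA cannot be told apart.

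Salt lowered most translation factor transcripts. A gene is called when its edgeR quasi-likelihood test has a p under 0.05 after Benjamini-Hochberg adjustment over all genes tested. In WT cells of experiment 1, 27 of the 32 genes were called lower and 1 higher, against backgrounds of 33.8% lower and 35.4% higher (69.2% in either direction) over all 5878 genes tested. Of the 32, 23 fell at least 2-fold, and the median log2 change was -1.11, against 0.02 over all genes. The 3 salt libraries were below the 3 basal libraries without overlap for 27 genes and above for 1 (background 34.6% below and 36.8% above). In HOG1-KO cells, 19 genes were called lower and 0 higher (background 25.6% and 28.8%, 54.3% together), with a median of -0.61 against 0.02, and 24 were below and 1 above (TEF2) without overlap (background 34.7% and 37.6%). In WT cells of experiment 2, 25 were called lower and 0 higher (background 27.2% and 30.1%, 57.2% together), with a median of -0.74 against 0.04, and 22 were below without overlap (background 25.9%). Called lower in all 3 comparisons were 18 genes: CDC33, FUN12, GCD11, NIP1, PAB1, PRT1, RPG1, SUI1, SUI2, SUI3, SUP35, SUP45, TIF3, TIF34, TIF35, TIF4631, TIF5 and YEF3. DED1, EFB1, EFT2, TEF1, TEF4 and TIF2 were called lower in both WT comparisons and missed the threshold in HOG1-KO. Of these, TIF2 and TEF4 missed it narrowly in HOG1-KO (edgeR adjusted p = 0.0540 and 0.0579), and they were called there at similar sizes by DESeq2 (adjusted p = 0.0434 and 0.0356) and by edgeR with only the HOG1-KO libraries (adjusted p = 5.90e-05 and 0.000776). DED1 was also called lower with only the HOG1-KO libraries (edgeR adjusted p = 0.000245). EFT1, HCR1, TEF2 and TIF4632 were called lower in none. EFT1 missed the threshold narrowly in WT of experiment 1 (-0.36, edgeR adjusted p = 0.0535) and was called lower there by DESeq2 (adjusted p = 0.0302). TEF2 was called lower there when scaled by total counts alone (edgeR adjusted p = 0.0119). The counts of EFT1 and TEF2 are uncertain singly. Ribosomal protein genes, given for scale, were called lower in 134 of 137 cases in WT of experiment 1 (median -1.13), in 53 of 137 in HOG1-KO (median -0.36) and in 107 of 137 in WT of experiment 2 (median -0.64). HOG1-KO and WT of experiment 2 were fitted together, and without WT basal 1 and WT salt 2 the genes called lower were 23 in HOG1-KO and 29 in WT, beside 2074 and 1948 of all genes. Fitted with only the libraries compared, 23 were called lower in HOG1-KO and 20 in WT, beside 2102 and 1310 of all genes. Which strain had more genes called lower thus depended on the fit.

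**Figure D1:**
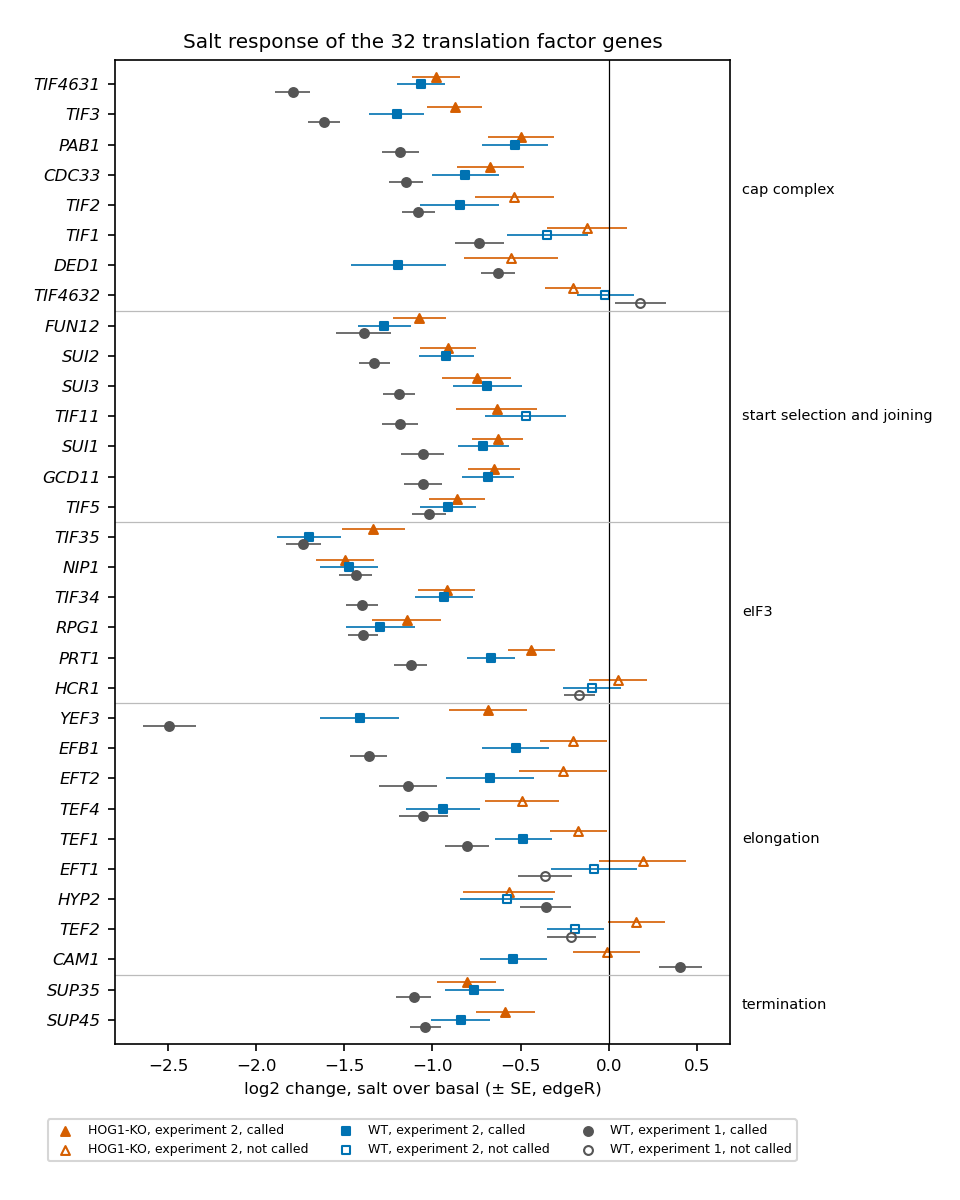
Log2 change with salt over basal (x axis, ± SE from edgeR) for the 32 genes in rows grouped by role, in HOG1-KO (triangles) and WT (squares) of experiment 2 and in WT of experiment 1 (circles). Filled symbols were called; 27, 19 and 25 genes were called lower in WT of experiment 1, HOG1-KO and WT of experiment 2, and YEF3 in WT of experiment 1 lies furthest left at -2.49.

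In the cap complex, the major eIF4G gene fell and the minor one was not called. TIF4631 (YGR162W, chrVII:824059-826917, plus strand), which encodes the major eIF4G, had 108, 115 and 128 CPM in WT salt against 424, 409.5 and 385 CPM in WT basal libraries of experiment 1. It had 154, 182 and 186 CPM in HOG1-KO salt against 331, 359 and 339.6 CPM in HOG1-KO basal libraries, and 139, 163 and 150.4 CPM in WT salt against 324, 310.5 and 313 CPM in WT basal libraries of experiment 2. Every salt library was below every basal library of its comparison. The log2 changes were -1.79 ± 0.10 (SE; edgeR adjusted p = 6.51e-09) in WT of experiment 1, -0.98 ± 0.14 (edgeR adjusted p = 2.43e-05) in HOG1-KO and -1.06 ± 0.14 (edgeR adjusted p = 7.00e-06) in WT of experiment 2. TIF4632 (YGL049C, chrVII:406860-409604, minus strand) had 47.6, 60.5 and 68.6 CPM in WT salt against 57.2, 56.0 and 43.1 CPM in WT basal libraries of experiment 1. It had 37.5, 48.4 and 44.1 CPM in HOG1-KO salt against 45.9, 50.5 and 53.4 CPM in HOG1-KO basal libraries, and 34.6, 49.8 and 40.0 CPM in WT salt against 47.3, 40.7 and 38.4 CPM in WT basal libraries of experiment 2. Salt and basal values of TIF4632 overlapped in all 3 comparisons, and its log2 changes of 0.18 ± 0.15, -0.20 ± 0.16 and -0.02 ± 0.16 were not called; without WT salt 1 of experiment 1 the first was 0.31 and called (edgeR adjusted p = 0.0272). The pair shares 60.5% of its aligned coding bases, so their counts are separable.

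The log2 ratio of TIF4631 over TIF4632 within a library, per coding length, does not depend on scaling between libraries. It averaged 0.94 ± 0.15 in WT salt against 2.91 ± 0.16 in WT basal libraries of experiment 1 (SD, n = 3 each). It averaged 1.95 ± 0.09 in HOG1-KO salt against 2.72 ± 0.10 in HOG1-KO basal libraries, and 1.82 ± 0.15 in WT salt against 2.85 ± 0.13 in WT basal libraries of experiment 2. The ratio was lower in every salt library than in every basal library of its comparison. Each exact two-sided permutation p was 0.1, the smallest that 3 against 3 allows, and 0.154 after adjustment over the 40 ratio tests made for 8 pairs.

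The other cap complex genes fell as follows. TIF3, encoding eIF4B, which stimulates the helicase, fell by 1.62 on the log2 scale in WT of experiment 1, by 0.87 in HOG1-KO and by 1.20 in WT of experiment 2. CDC33, the cap-binding eIF4E, fell by 1.15, 0.67 and 0.81 in the same order. PAB1 fell by 1.18 (SE 0.11), 0.50 (SE 0.19) and 0.53 (SE 0.19). Its call in HOG1-KO, at an edgeR adjusted p of 0.0359, was lost with the replicate number as a block (edgeR adjusted p = 0.0640) and without HOG1-KO basal 1 or 2 or HOG1-KO salt 1 or 3 (edgeR adjusted p between 0.0960 and 0.112). Its call in WT of experiment 2 was lost without WT basal 3 (edgeR adjusted p = 0.108). TIF1 and TIF2 counted as 1 gene changed by -0.87 in WT of experiment 1 (edgeR adjusted p = 5.82e-05), by -0.35 in HOG1-KO (edgeR adjusted p = 0.211) and by -0.62 in WT of experiment 2 (edgeR adjusted p = 0.0293).

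DED1 (YOR204W, chrXV:722911-724725, plus strand), a helicase that opens structured leaders, had 192, 165 and 179 CPM in WT salt against 248, 293 and 289 CPM in WT basal libraries of experiment 1. It had 425, 355 and 370.0 CPM in HOG1-KO salt against 611, 571 and 506 CPM in HOG1-KO basal libraries, and 317, 148 and 332 CPM in WT salt against 409.7, 659 and 752 CPM in WT basal libraries of experiment 2. No salt library reached its basal group, and the lowest value of each WT group of experiment 2 came from WT salt 2 and WT basal 1, the libraries that stood apart. The log2 changes were -0.63 ± 0.10 (edgeR adjusted p = 0.000113), -0.55 ± 0.27 (not called, edgeR adjusted p = 0.0934) and -1.19 ± 0.27 (edgeR adjusted p = 0.00154). The HOG1-KO change was -0.56 and called without those 2 libraries (edgeR adjusted p = 0.000132), and it was also called without either of them alone. With only the HOG1-KO libraries it was called too (edgeR adjusted p = 0.000245). Its paralog DBP1 moved the other way: it had 22.9, 25.6 and 27.1 CPM in WT salt against 10.8, 11.9 and 12.7 CPM in WT basal libraries of experiment 1. DBP1 had 39.0, 36.3 and 32.6 CPM in HOG1-KO salt against 10.9, 13.9 and 12.4 CPM in HOG1-KO basal libraries, and 26.5, 24.8 and 29.6 CPM in WT salt against 9.89, 11.1 and 9.16 CPM in WT basal libraries of experiment 2. Every salt library was above every basal library, and DBP1 was called higher in WT of experiment 1 (1.10 ± 0.13), in HOG1-KO (1.54 ± 0.16) and in WT of experiment 2 (1.43 ± 0.16).

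**Figure D2:**
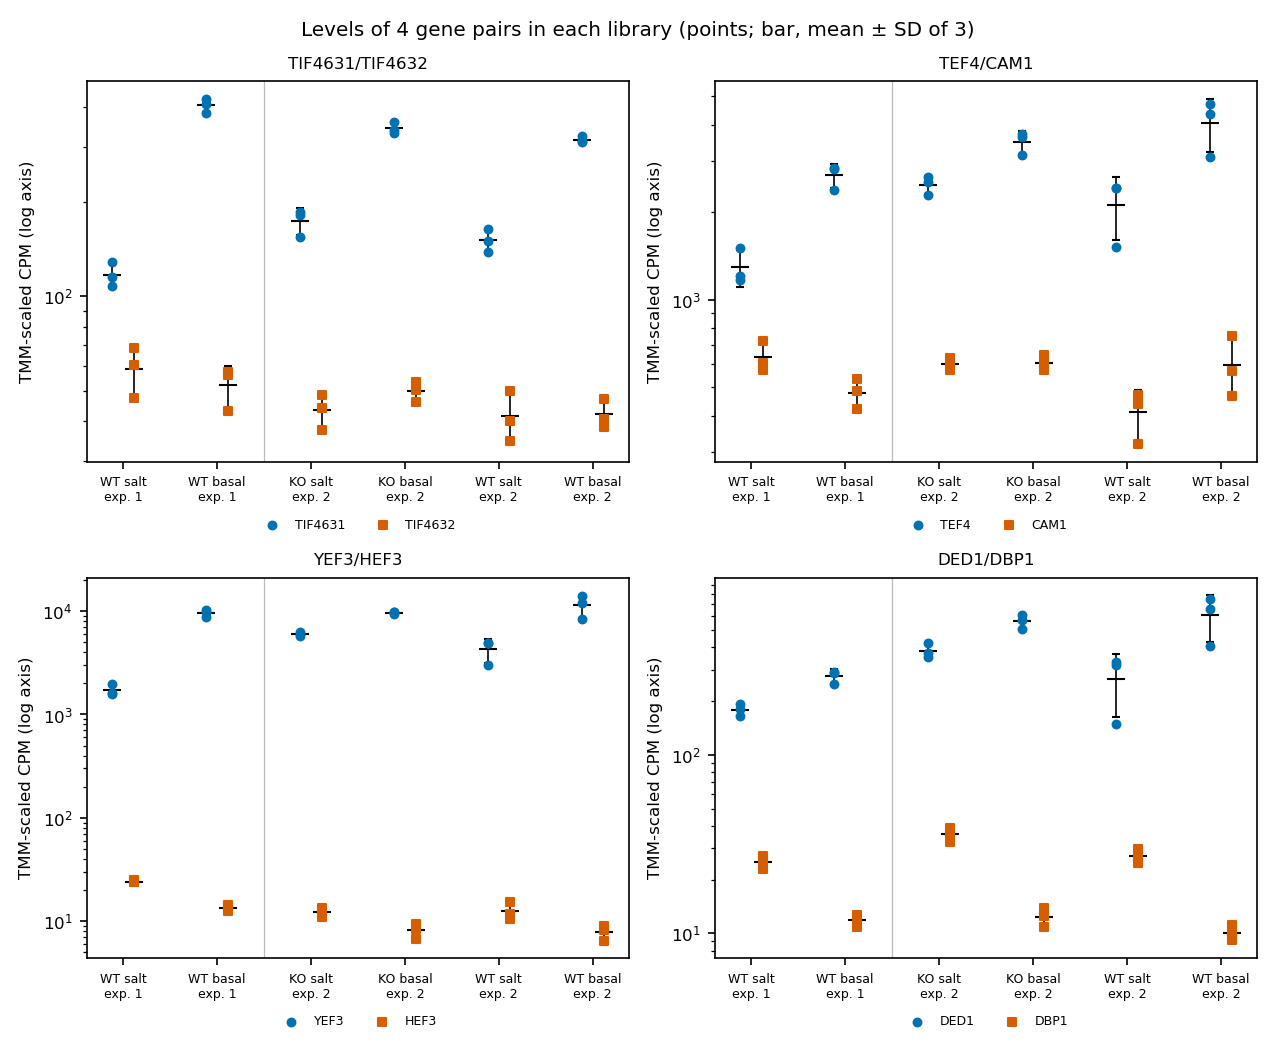
TMM-scaled CPM (log axis) in each library for 4 gene pairs, with salt left of basal, HOG1-KO (KO) left of WT in experiment 2, points for libraries and bars for mean ± SD of 3. TIF4631, TEF4, YEF3 and DED1 sit lower in salt, while TIF4632 overlaps between conditions and HEF3 and DBP1 sit higher in salt at about 10 to 40 CPM.

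Of the 7 genes for start selection and joining, 7 were called lower in WT of experiment 1 (median log2 change -1.18), 7 in HOG1-KO (median -0.75) and 6 in WT of experiment 2 (median -0.71). The shares of all genes called lower were 33.8%, 25.6% and 27.2% in that order. FUN12 (YAL035W, chrI:76427-79435, plus strand), encoding eIF5B, had 96.2, 141 and 146 CPM in WT salt against 368, 359 and 279.7 CPM in WT basal libraries of experiment 1. It had 193, 217 and 218 CPM in HOG1-KO salt against 410.2, 506 and 406 CPM in HOG1-KO basal libraries, and 159, 142 and 152 CPM in WT salt against 329, 367 and 400.4 CPM in WT basal libraries of experiment 2. The groups did not overlap, and the changes of -1.39 ± 0.16, -1.07 ± 0.15 and -1.27 ± 0.15 were called. The 3 subunits of eIF2 changed by -1.33 (SUI2), -1.19 (SUI3) and -1.05 (GCD11) in WT of experiment 1, by -0.91, -0.75 and -0.65 in HOG1-KO, and by -0.92, -0.69 and -0.68 in WT of experiment 2. SUI1 (eIF1) fell by 1.06, 0.63 and 0.71 and TIF5 (eIF5) by 1.02, 0.86 and 0.91 in that order. TIF11 (eIF1A) fell by 1.18 in WT of experiment 1 and by 0.63 in HOG1-KO, and its change of -0.47 in WT of experiment 2 was not called (edgeR adjusted p = 0.0919). In WT basal 1 and WT salt 2 TIF11 was the most raised of the 32 genes, and without them the WT change was -0.63 and called (edgeR adjusted p = 0.000600). The HOG1-KO call of TIF11 (edgeR adjusted p = 0.0296) was lost with the replicate block (edgeR adjusted p = 0.0609) and without HOG1-KO basal 2 or any 1 of the HOG1-KO salt libraries (edgeR adjusted p between 0.0549 and 0.119).

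Of the 6 genes of the scaffold eIF3, 5 were called lower in each comparison, with medians of -1.40 in WT of experiment 1, -1.03 in HOG1-KO and -1.11 in WT of experiment 2. The shares of all genes called lower were 33.8%, 25.6% and 27.2% in that order. NIP1 (YMR309C, chrXIII:892988-895426, minus strand), a core subunit that contacts eIF1 and eIF5, had 82.5, 84.9 and 85.2 CPM in WT salt against 247, 234 and 202 CPM in WT basal libraries of experiment 1. It had 169, 183 and 187 CPM in HOG1-KO salt against 549, 497 and 475 CPM in HOG1-KO basal libraries, and 185, 168 and 134 CPM in WT salt against 521, 391 and 441 CPM in WT basal libraries of experiment 2. All salt libraries were far below the basal ones, and the log2 changes were -1.44 ± 0.09, -1.50 ± 0.16 and -1.48 ± 0.16 (edgeR adjusted p = 3.80e-08, 2.33e-06 and 1.45e-06). TIF35 (YDR429C, chrIV:1324477-1325301, minus strand), a subunit with an RNA-binding motif, had 58.2, 70.8 and 67.8 CPM in WT salt against 213, 233 and 207 CPM in WT basal libraries of experiment 1. It had 87.5, 88.7 and 91.3 CPM in HOG1-KO salt against 204, 250.0 and 220.3 CPM in HOG1-KO basal libraries, and 57.5, 93.2 and 57.1 CPM in WT salt against 244, 226 and 205 CPM in WT basal libraries of experiment 2. Its highest WT salt value in experiment 2 was that of WT salt 2, and no groups overlapped. The changes were -1.73 ± 0.10, -1.33 ± 0.18 and -1.70 ± 0.18, all called. RPG1 (-1.39, -1.15 and -1.30), TIF34 (-1.40, -0.92 and -0.93) and PRT1 (-1.12, -0.44 and -0.67) were called lower in the same 3 comparisons.

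HCR1 (YLR192C, chrXII:538792-539589, minus strand), the loosely bound eIF3j, stood apart from the other eIF3 genes. It had 202, 207 and 228 CPM in WT salt against 238, 229 and 249 CPM in WT basal libraries of experiment 1. It had 199.5, 201 and 190.4 CPM in HOG1-KO salt against 185, 214 and 171 CPM in HOG1-KO basal libraries, and 165, 225 and 148 CPM in WT salt against 208, 199 and 168 CPM in WT basal libraries of experiment 2. Salt was below basal by a narrow margin in experiment 1 and overlapped with it in experiment 2. The changes of -0.17 ± 0.09, 0.05 ± 0.17 and -0.09 ± 0.17 were not called (edgeR adjusted p = 0.108, 0.807 and 0.647). Without WT salt 2 the change in WT of experiment 2 was -0.35 and called (edgeR adjusted p = 0.0435).

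Elongation factors were divided. YEF3 (YLR249W, chrXII:636780-639914, plus strand), the eEF3 ATPase, had 1951, 1583 and 1599.5 CPM in WT salt against 8737, 9780.2 and 10367 CPM in WT basal libraries of experiment 1. It had 6062, 5719.5 and 6234 CPM in HOG1-KO salt against 9764, 9906 and 9314 CPM in HOG1-KO basal libraries, and 4942, 2992 and 4967 CPM in WT salt against 8408, 13891 and 12069 CPM in WT basal libraries of experiment 2. Salt was below basal in every case, and HOG1-KO salt was above WT salt of experiment 2 without overlap. The log2 changes were -2.49 ± 0.15 (edgeR adjusted p = 1.61e-08), the largest fall of the 32 genes, -0.69 ± 0.22 (edgeR adjusted p = 0.0160) and -1.41 ± 0.22 (edgeR adjusted p = 6.55e-05). The HOG1-KO call was lost with the replicate block (edgeR adjusted p = 0.0672) and without HOG1-KO salt 2 (edgeR adjusted p = 0.0557). HEF3, a paralog of YEF3 with 74.8% coding identity, stood far lower, at 24.1 ± 0.638 CPM in WT salt against 13.5 ± 0.959 CPM in WT basal cells of experiment 1, 12.2 ± 1.15 CPM in HOG1-KO salt against 8.12 ± 1.33 CPM in HOG1-KO basal cells, and 12.5 ± 2.43 CPM in WT salt against 7.90 ± 1.34 CPM in WT basal cells of experiment 2. HEF3 was called higher in salt by 0.84 ± 0.12, 0.59 ± 0.20 and 0.65 ± 0.21 on the log2 scale. Its call was lost in HOG1-KO without HOG1-KO basal 1 or 3 or HOG1-KO salt 2 or 3 (edgeR adjusted p between 0.0575 and 0.113), and in WT of experiment 2 without WT basal 2 or WT salt 1 (edgeR adjusted p = 0.0642 and 0.0649).

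TEF4 (YKL081W, chrXI:282891-284455, plus strand) and CAM1 (YPL048W, chrXVI:464401-465648, plus strand) both encode the gamma subunit of eEF1B, and their changes differed. TEF4 had 1509, 1169 and 1206 CPM in WT salt against 2392, 2823 and 2838 CPM in WT basal libraries of experiment 1, a called change of -1.05 ± 0.14. CAM1 had 722, 576 and 609 CPM in WT salt against 421, 484 and 534 CPM in WT basal libraries of experiment 1, a change of 0.41 ± 0.12 (edgeR adjusted p = 0.0108). CAM1 was the 1 gene of the 32 called higher, with salt above basal, and the call was lost without WT basal 1 of experiment 1 (edgeR adjusted p = 0.0652). In experiment 2, CAM1 had 629, 573 and 606 CPM in HOG1-KO salt against 576, 601 and 646 CPM in HOG1-KO basal libraries, and 473, 319 and 439.5 CPM in WT salt against 469, 753 and 572 CPM in WT basal libraries. Its values overlapped in both strains. The change was -0.01 ± 0.19 in HOG1-KO and -0.54 ± 0.19 in WT, where it was called lower (edgeR adjusted p = 0.0236), and that call was lost without WT basal 2 (edgeR adjusted p = 0.140). TEF4 changed by -0.49 ± 0.21 in HOG1-KO (not called, edgeR adjusted p = 0.0579) and by -0.94 ± 0.21 in WT of experiment 2 (edgeR adjusted p = 0.00139). The within-library log2 ratio of TEF4 over CAM1 was 1.03 ± 0.04 in WT salt against 2.50 ± 0.07 in WT basal libraries of experiment 1, 2.05 ± 0.04 in HOG1-KO salt against 2.53 ± 0.14 in HOG1-KO basal libraries, and 2.37 ± 0.10 in WT salt against 2.78 ± 0.15 in WT basal libraries of experiment 2. Salt ratios were below basal ratios without overlap each time (exact permutation p = 0.1 each, the smallest possible).

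EFB1, the catalytic eEF1B subunit, was called lower in both WT comparisons, by 1.36 in experiment 1 and by 0.53 in experiment 2. Its change in HOG1-KO was -0.20 ± 0.19 and not called. The call in WT of experiment 2 (edgeR adjusted p = 0.0263) rested on overlapping groups and was lost without WT basal 1, WT salt 1 or WT salt 3 (edgeR adjusted p between 0.0842 and 0.113). The near-identical eEF1A genes TEF1 and TEF2 counted as 1 gene changed by -0.45 in WT of experiment 1 (edgeR adjusted p = 0.0151), by 0.02 in HOG1-KO (edgeR adjusted p = 0.911) and by -0.31 in WT of experiment 2 (edgeR adjusted p = 0.117). The eEF2 genes EFT1 and EFT2 counted together changed by -0.79 in WT of experiment 1 (edgeR adjusted p = 0.00104), by -0.11 in HOG1-KO (edgeR adjusted p = 0.745) and by -0.47 in WT of experiment 2 (edgeR adjusted p = 0.121). Taken singly, the calls of TEF1 and EFT2 in WT of experiment 2 were lost without WT basal 2 (edgeR adjusted p = 0.0876 and 0.101), and that of EFT2 also without WT basal 3 or WT salt 2 (edgeR adjusted p = 0.108 and 0.0657). HYP2 changed by -0.36 ± 0.15 in WT of experiment 1 (edgeR adjusted p = 0.0455), a call lost without WT basal 2 or 3 or WT salt 2 or 3 (edgeR adjusted p between 0.106 and 0.183), by -0.57 ± 0.26 in HOG1-KO (edgeR adjusted p = 0.0816) and by -0.58 ± 0.26 in WT of experiment 2 (edgeR adjusted p = 0.0714). Without WT basal 1 and WT salt 2 both of the HYP2 changes in experiment 2 were called, at -0.57 in HOG1-KO (edgeR adjusted p = 0.00120) and -0.59 in WT (edgeR adjusted p = 0.00483), and DESeq2 called the WT change with all libraries (adjusted p = 0.0445). Over the 9 elongation genes, 6 were called lower in WT of experiment 1, 1 in HOG1-KO and 6 in WT of experiment 2, with medians of -0.80, -0.20 and -0.54. All genes tested had 33.8%, 25.6% and 27.2% called lower in that order. These calls depended on which libraries were fitted together. With only the libraries compared, TEF4 and HYP2 were also called lower in HOG1-KO (edgeR adjusted p = 0.000776 and 0.00150). In that setting the calls of CAM1, EFB1, EFT2 and TEF1 in WT of experiment 2 were lost (edgeR adjusted p between 0.0983 and 0.110).

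Both termination genes were called lower in all 3 comparisons. SUP35, encoding eRF3, had 137, 143 and 166 CPM in WT salt against 324, 335 and 299.6 CPM in WT basal libraries of experiment 1. It had 157, 189 and 167 CPM in HOG1-KO salt against 276, 346 and 278 CPM in HOG1-KO basal libraries, and 121, 168 and 140.3 CPM in WT salt against 249.8, 205 and 275 CPM in WT basal libraries of experiment 2. No groups overlapped, and the called changes were -1.11 ± 0.10, -0.81 ± 0.17 and -0.76 ± 0.17. SUP45, encoding eRF1, was called lower by 1.04, 0.59 and 0.84 on the log2 scale in the same order.

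Members with an RRPE core upstream were set beside the 5 without one, DED1, PRT1, TIF4632, CAM1 and TEF2. In WT of experiment 1 the median log2 change was -1.15 over 27 genes with the core, 25 of them called lower, and -0.21 over 5 genes without it, 2 of them called lower. In HOG1-KO the medians were -0.65 with the core and -0.20 without it, and 18 and 1 genes were called lower. In WT of experiment 2 the medians were -0.81 and -0.54, and 22 and 3 genes were called lower. The ranges overlapped in all 3 comparisons, and PRT1 and DED1 fell without the core while HCR1 and EFT1 carried it and were not called. Over all genes tested, 33.8%, 25.6% and 27.2% were called lower in the same order, and the counts of TEF2 are uncertain singly. The split is a description with no test.

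**Figure D3:**
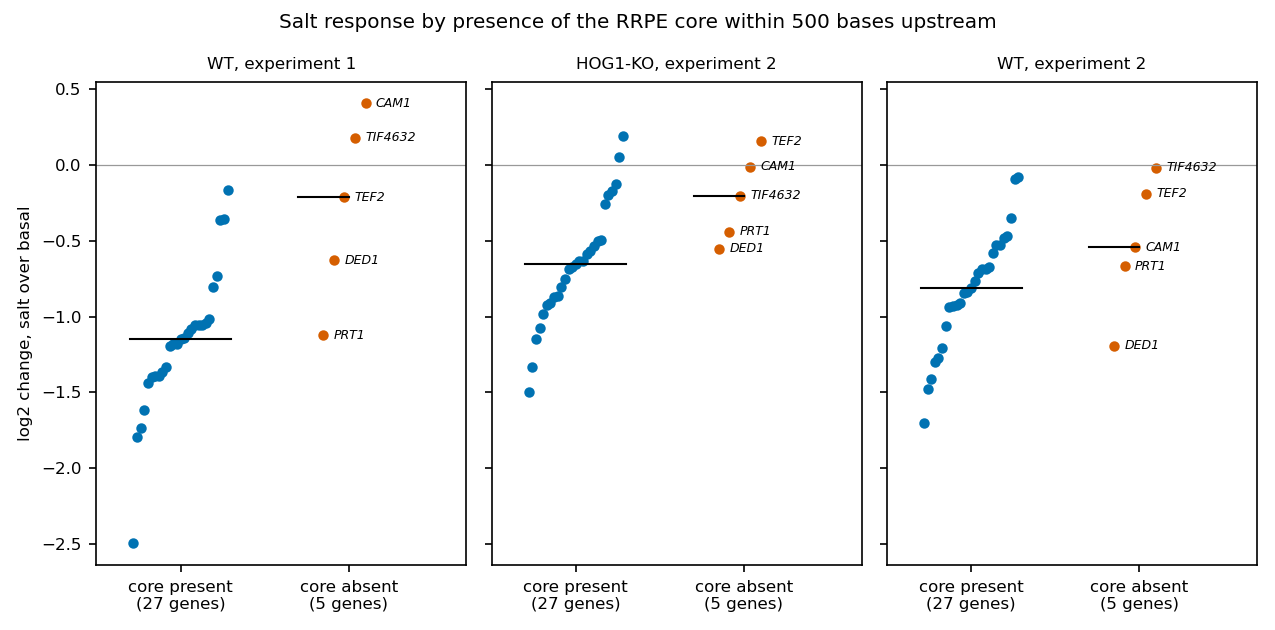
Log2 change with salt over basal (y axis) for 27 genes with and 5 genes without the RRPE core within 500 bases upstream, in WT of experiment 1 and in HOG1-KO and WT of experiment 2; points are genes and bars are medians. Medians with the core lie at -1.15, -0.65 and -0.81, below those without it at -0.21, -0.20 and -0.54, and the points overlap.

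The dependence of the response on HOG1 was tested as the salt response of HOG1-KO minus that of WT in experiment 2, for which 4.57% of 6107 genes were called higher and 5.24% lower, 9.81% together. Of the 32 genes, 0 were called by edgeR and 0 by DESeq2, and 1 had an unadjusted p under 0.05. The difference was positive, meaning a less negative or more positive change in HOG1-KO, for 27 genes and negative for 5, with a median of 0.17 against 0.00 over all genes. It was largest for YEF3 at 0.73 ± 0.31 (edgeR adjusted p = 0.184), DED1 at 0.64 ± 0.38 (edgeR adjusted p = 0.382) and CAM1 at 0.53 ± 0.27 (edgeR adjusted p = 0.285). Elongation genes had a median difference of 0.35, and start selection and joining genes one of 0.03. WT libraries enter with opposite sign in every one of these differences, so their signs are not independent of each other.

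Without WT basal 1 and WT salt 2, 6 of the 32 genes were called higher in the difference and 0 lower, beside 611 higher and 637 lower of all genes. With all libraries, 279 and 320 of all genes were called. The 6 genes were YEF3 (0.70, edgeR adjusted p = 0.00193), TIF35 (0.58, edgeR adjusted p = 0.0121), TIF3 (0.52, edgeR adjusted p = 0.0192), DED1 (0.57, edgeR adjusted p = 0.0193), CAM1 (0.52, edgeR adjusted p = 0.0325) and TEF2 (0.43, edgeR adjusted p = 0.0462). The 2 libraries left out were picked from these same counts, so the gained calls are a description. Why those libraries stand apart was not tested. The sizes for YEF3, DED1 and CAM1 moved by less than 0.1 on the log2 scale. Those for TIF35, TIF3 and TEF2 rose, from 0.36 to 0.58, from 0.33 to 0.52 and from 0.35 to 0.43.

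**Figure D4:**
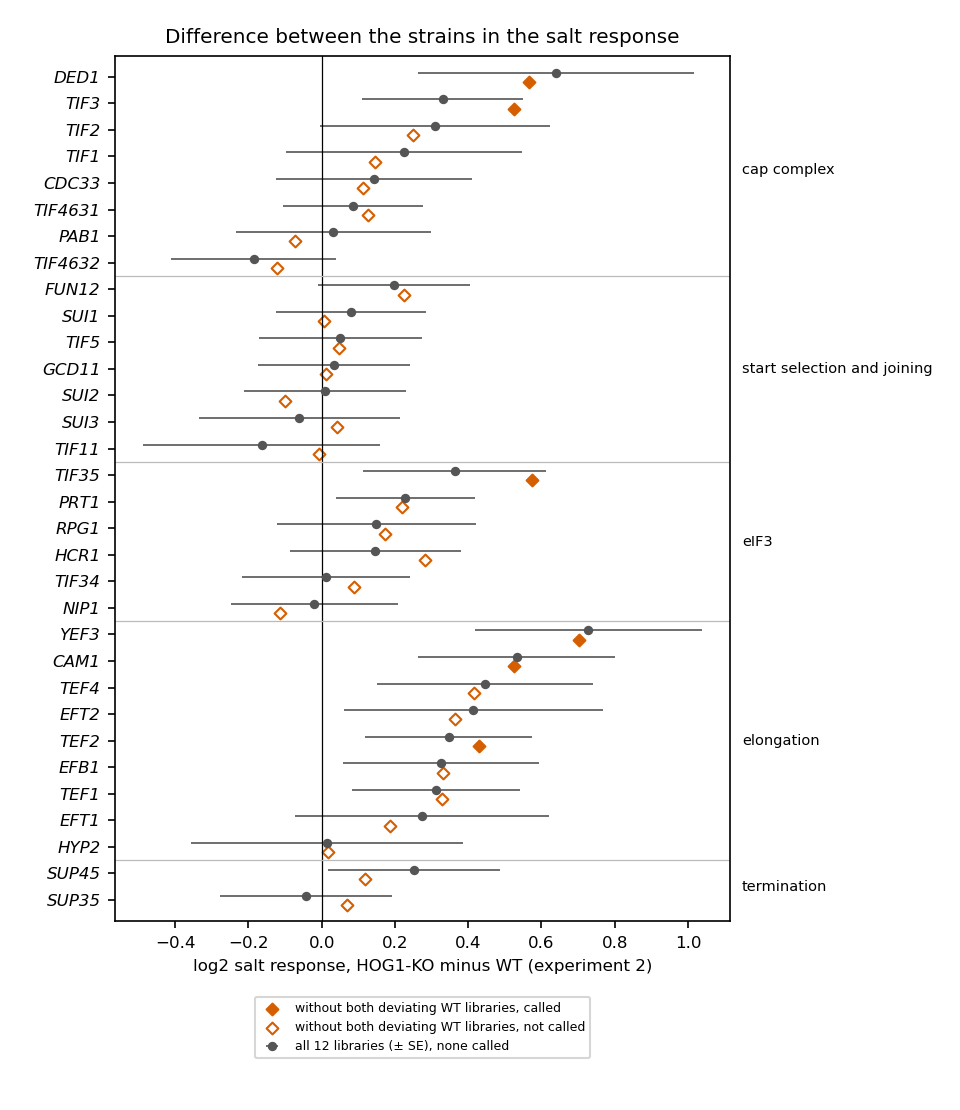
Salt response of HOG1-KO minus that of WT in experiment 2 (x axis, log2) for the 32 genes in rows grouped by role. Circles with ± SE use all 12 libraries, of which none was called; diamonds leave out WT basal 1 and WT salt 2, and the 6 filled ones were called, YEF3 furthest right at 0.70.

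Between strains at rest, 0 of the 32 genes were called by edgeR and 0 by DESeq2 (background 0.475% higher and 0.508% lower, 0.982% together), 0 had an unadjusted p under 0.05, and the median log2 difference of HOG1-KO over WT was -0.02. HOG1-KO basal libraries were above WT basal libraries without overlap for 3 genes, TIF4631, FUN12 and SUP35, and below for 0 (background 9.87% and 7.14%). Without WT basal 1 and WT salt 2, 6 genes were called lower in HOG1-KO: HYP2 (-0.65), EFT2 (-0.49), TIF2 (-0.45), YEF3 (-0.43), TEF4 (-0.38) and TIF1 (-0.34). With those libraries left out, 701 of all genes were called lower and 352 higher. In salt, 2 genes were called higher in HOG1-KO than in WT, FUN12 by 0.47 ± 0.15 (edgeR adjusted p = 0.0291) and CAM1 by 0.56 ± 0.19 (edgeR adjusted p = 0.0433), beside a background of 12.8% higher and 12.4% lower, 25.2% together. The per-library values of both genes are given above, and HOG1-KO salt was above WT salt without overlap for them and for 8 further genes, 10 of 32 (background 20.5%). The call of FUN12 was lost without HOG1-KO salt 2 or 3 or WT salt 3 (edgeR adjusted p between 0.0697 and 0.106). That of CAM1 was lost without any 1 of 9 libraries, which are the 6 HOG1-KO libraries, WT basal 3, WT salt 2 and WT salt 3 (edgeR adjusted p between 0.0552 and 0.127), and also with the replicate block (0.0723) and with RLE scaling (0.0506). Without both WT basal 1 and WT salt 2, 11 genes were called higher and HYP2 lower (-0.63), beside 1487 higher and 1437 lower of all genes.

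Of the eIF5A genes, ANB1 was called higher in HOG1-KO and HYP2 was not called. ANB1, which in yeast is known as the eIF5A gene used when oxygen is scarce, had 93.3, 73.0 and 86.7 CPM in HOG1-KO salt against 37.8, 15.8 and 29.3 CPM in WT salt libraries. It had 113, 139 and 122 CPM in HOG1-KO basal against 44.8, 56.5 and 46.7 CPM in WT basal libraries. Every HOG1-KO library was above every WT library of its condition, by 1.62 ± 0.24 on the log2 scale in salt (edgeR adjusted p = 0.000105) and by 1.34 ± 0.23 in basal medium (edgeR adjusted p = 0.00960, and 0.0574 without HOG1-KO basal 2). With salt, unlike DBP1 and HEF3, ANB1 was called lower, by 1.02 in WT of experiment 1, 0.56 in HOG1-KO and 0.845 in WT of experiment 2. Its HOG1-KO call was lost without any 1 of 9 libraries (edgeR adjusted p between 0.0504 and 0.159). HYP2 (YEL034W, chrV:85676-86149, plus strand) had 1858, 1532 and 1404 CPM in HOG1-KO salt against 2545, 1401 and 2385 CPM in WT salt libraries. It had 2276, 2769 and 2049 CPM in HOG1-KO basal against 2064, 4218 and 3181 CPM in WT basal libraries. Its groups overlapped, and its differences of -0.40 ± 0.26 and -0.42 ± 0.26 were not called (edgeR adjusted p = 0.298 and 0.589). The within-library log2 ratio of HYP2 over ANB1 was 4.24 ± 0.20 in HOG1-KO salt against 6.30 ± 0.20 in WT salt libraries, and 4.24 ± 0.15 in HOG1-KO basal against 5.94 ± 0.37 in WT basal libraries. The strains did not overlap (exact permutation p = 0.1 each, the smallest possible), and HYP2 still held most of the eIF5A counts in both.

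**Figure D5:**
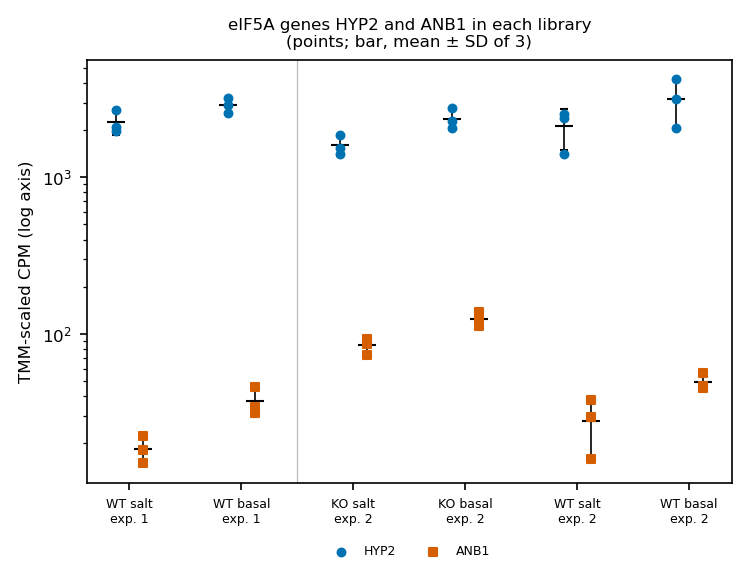
TMM-scaled CPM (log axis) of HYP2 and ANB1 in each library of the 6 groups, points for libraries and bars for mean ± SD of 3. ANB1 lies at 73.0 to 139 CPM in HOG1-KO and at 15.8 to 56.5 CPM in WT of experiment 2, while HYP2 overlaps between the strains.

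The WT salt responses of the 2 experiments were set against each other as experiment 2 minus experiment 1, a comparison in which kit, culture and the marker genes named above cannot be told apart. Of the 32 genes, 0 were called by edgeR (background 1.53% higher and 1.05% lower, 2.58% together), 5 had an unadjusted p under 0.05, and DESeq2 called 3 higher (TIF4631, YEF3 and EFB1) and 1 lower (CAM1), beside 239 higher and 157 lower of all genes. The median difference was 0.28, against 0.00 over all genes. YEF3 differed by 1.03 ± 0.33 (edgeR adjusted p = 0.125), EFB1 by 0.79 ± 0.26 (edgeR adjusted p = 0.140), TIF4631 by 0.68 ± 0.19 (edgeR adjusted p = 0.0807) and CAM1 by -0.998 ± 0.286 (edgeR adjusted p = 0.0888). Without WT basal 1 and WT salt 2 of experiment 2, 5 genes were called higher and CAM1 lower, beside 455 higher and 359 lower of all genes.

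Genes that act on the translation factors were followed from textbook lists, 42 genes in all. For scale, 33.8% of all genes were called lower in WT of experiment 1, 25.6% in HOG1-KO and 27.2% in WT of experiment 2. The enzymes that modify elongation factors, which make hypusine on eIF5A, diphthamide on eEF2 and methyl groups on eEF1A and others, were called lower in 16 of 16 cases in WT of experiment 1 (median log2 change -1.87), in 15 of 16 in HOG1-KO (median -1.07) and in 15 of 16 in WT of experiment 2 (median -1.48). JJJ3, a J-protein of diphthamide synthesis, had 0.422, 0.599 and 0.475 CPM in WT salt against 12.7, 13.4 and 9.59 CPM in WT basal libraries of experiment 1. It had 8.27, 8.01 and 7.93 CPM in HOG1-KO salt against 26.9, 27.1 and 25.2 CPM in HOG1-KO basal libraries, and 2.78, 2.48 and 2.17 CPM in WT salt against 29.6, 20.0 and 19.5 CPM in WT basal libraries of experiment 2. The groups were far apart, and the changes of -4.56 ± 0.27, -1.71 ± 0.18 and -3.21 ± 0.21 were called. The WT salt values of experiment 1 lay near the floor, so the size of -4.56 is uncertain. LIA1, which encodes the hydroxylase that completes hypusine, changed by -3.10, -1.33 and -1.99, EFM4, a methyltransferase of eEF1A, by -2.22, -1.35 and -1.72, and DPH2, of the first step of diphthamide synthesis, by -2.07, -1.61 and -2.20. EFM3, a methyltransferase of eEF2, changed by -2.14, -1.63 and -2.07.

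eIF2B, which recharges eIF2 with GTP, and its control by GCN2 were counted over 9 genes, of which 8 were called lower in WT of experiment 1 and 6 each in HOG1-KO and in WT of experiment 2. The kinase gene GCN2 itself changed by -0.03 ± 0.12, 0.36 ± 0.19 and 0.01 ± 0.19 and was not called, and it is named after its values were seen. Of 8 genes for recycling, joining and rescue, 6, 4 and 5 were called lower in that order. HBS1, a rescue factor, was called higher in WT of experiment 2 by 0.43 ± 0.17 (edgeR adjusted p = 0.0441), and the call was lost without any 1 of 9 libraries (edgeR adjusted p between 0.0516 and 0.258). Of 6 mRNA-bound repressors, 3 were called higher and 2 lower in WT of experiment 1, near the 35.4% and 33.8% of all genes, with DHH1, a decapping activator, higher by 0.64 ± 0.08, and 0 in HOG1-KO and 1 in WT of experiment 2 were called lower. Aminoacyl-tRNA synthetase genes were called lower in 19 of 21 cases in WT of experiment 1 (median -1.09), in 11 of 21 in HOG1-KO (median -0.42) and in 14 of 21 in WT of experiment 2 (median -0.51).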

How the data were processed

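The authors deposited raw read counts per gene in 2 tables, 1 per experiment. Per the submitters' processing notes, HISAT2 2.1.0, featureCounts 1.5.1 and build R64 were used. The annotation release, strandedness option and treatment of multiply matching reads were not given in the sources used here. Reads were 50 bases, single-end, per the labels' protocols. All columns matched 1 sample by name, and totals were 11135883 to 16527859 counts per library. Replicates are biological triplicates, per the labels, and their counts differed by more than counting noise (chi-square over degrees of freedom 6.34 to 168).

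From those counts, edgeR 4.0.16 in R 4.3.3 fitted experiment 1 (6 libraries), experiment 2 (12 libraries sharing 1 estimate of the spread) and the 12 WT libraries (difference between experiments), with TMM scaling, filterByExpr, robust glmQLFit, glmQLFTest and Benjamini-Hochberg adjustment over all genes tested. SE is the absolute log2 change over the square root of F. Within-library ratios used 0.5 added to counts and exact permutation tests. Names, coordinates and sequences came from RefSeq R64, in which 6048 of 7126 identifiers matched. The 32 genes, the lists and the tests were chosen with earlier results of these data known. Other pathway genes are named where they had up to 3 of the largest called changes each way in a comparison.

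In HOG1-KO, basal and salt libraries of the same replicate number deviated together weakly from their group means (r = 0.19, 0.36 and 0.23). In WT some such values were negative (-0.49, 0.06 and -0.42 in experiment 1, -0.61, -0.61 and 0.63 in experiment 2). These values do not settle whether replicate numbers pair the libraries, and the main tests used no replicate block. Alternatives were RLE scaling, total counts, DESeq2 1.42.0, no filter, at least 10 CPM in 3 libraries, a replicate block, near-identical pairs summed, only the libraries compared, leaving out each library in turn, and leaving out WT basal 1 and WT salt 2 of experiment 2.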

Additional observations from a re-analysis of the deposited data

Results flagged for a closer look

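For 2 genes that act on translation factors, the salt response itself differed between the strains. JJJ3 fell less in HOG1-KO than in WT of experiment 2, with changes of -1.71 ± 0.18 and -3.21 ± 0.21 and a difference of 1.501 ± 0.275 (edgeR adjusted p = 0.00189), called in every alternative tried. KTI11, a small protein of diphthamide synthesis, had 47.3, 41.6 and 38.8 CPM in HOG1-KO salt against 73.0, 106 and 66.0 CPM in HOG1-KO basal libraries, and 16.3, 18.7 and 20.5 CPM in WT salt against 68.6, 72.3 and 64.7 CPM in WT basal libraries. Its difference was 0.95 ± 0.24 (edgeR adjusted p = 0.0201), and the call was lost with total counts alone (0.0507), with the replicate block (0.0527) and without HOG1-KO basal 1 or 3, HOG1-KO salt 1 or WT salt 1 (edgeR adjusted p between 0.0518 and 0.0651). Of the 42 other pathway genes these were the 2 called, and 9.81% of all 6107 genes were called in this comparison.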

How the results depend on the processing

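Over 27 settings, 4363 recomputed values gave 0 called changes of direction, 90 gained calls and 64 lost calls. With total counts alone the median of all genes moved to 0.19 in HOG1-KO and 0.21 in WT of experiment 2. The HOG1-KO median of the 32 genes was then -0.43 with 1 called higher (TEF2), and the calls of CDC33, PRT1, SUI3, SUP45, TIF11 and PAB1 were lost. In that setting 9 genes were called higher in HOG1-KO than in WT salt, beside 997 higher and 447 lower of all genes. In experiment 2 minus experiment 1, 2 were called higher, beside 98 higher and 24 lower of all genes. Of genes higher in HOG1-KO than in WT salt, RLE scaling and the replicate block left 1 and the libraries compared alone 0, beside 804, 737 and 623 higher of all genes. The replicate block gave 16 genes lower in HOG1-KO, 21 in WT of experiment 2 (EFT2, CAM1, TEF1 and EFB1 lost), and 26 lower and 1 higher in WT of experiment 1. Of all genes it called 1336, 1470 and 1831 lower in that order. DESeq2 called 3 higher and 1 lower in experiment 2 minus experiment 1. Without WT basal 1 and WT salt 2, 6 genes were higher in the response difference, 6 lower in HOG1-KO than WT basal, 11 higher and 1 lower in salt, and 5 higher and 1 lower in experiment 2 minus experiment 1. Leaving out 1 library gave 0 to 2 genes higher in WT of experiment 1, 0 to 1 in the response difference, 0 to 4 in HOG1-KO against WT salt, and 0 to 2 higher and 0 to 1 lower in experiment 2 minus experiment 1. The same fits called 1908 to 2147, 196 to 589 and 552 to 1200 of all genes higher in the first 3 of these. For the last they called 49 to 175 higher and 13 to 164 lower. Calls held in every setting for 26 of 28 genes in WT of experiment 1, 12 of 19 in HOG1-KO, 19 of 25 in WT of experiment 2 and 0 of 2 in HOG1-KO against WT salt. The causes were not tested.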
